A study of Mus musculus with 24 samples.

Results

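Interferon-stimulated genes (ISGs) are the genes that cells switch on in response to interferons, and their products sense viral nucleic acids, block viral entry and replication, and tag proteins with the ubiquitin-like modifier ISG15. The 48 ISGs described here, of 55487 genes counted, were chosen by name, with earlier results of these data known. Their shares beside those of all genes are therefore descriptions, not tests of the list. They fall into 7 role groups: signalling factors (4 genes), nucleic acid sensors (10), membrane effectors (4), cytosolic effectors (9), interferon-induced GTPases (6), ISG15, ubiquitin and ADP-ribose enzymes (8), and 7 others. They were measured in 24 Smart-seq2 libraries of mouse HSCs (hematopoietic stem cells, the source of every blood lineage in the marrow), from a series on the pseudouridine synthase PUS10 in HSC aging.

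Libraries formed 3 experiments. HSCs of the genotype PUS10-OE, overexpressing PUS10 (n = 3), were set against the empty control named Vector (n = 3). HSCs with knockdown of the microRNA miR-139, labelled miR139-KD (n = 6), were set against a non-target control, NTC (n = 6). HSCs labelled Pus10-KO (n = 3) were set against Pus10-WT (n = 3). The labels give a cell type and a genotype only, with no age, sex, strain or delivery method, and leave unsaid whether the replicates are different mice. P-values therefore reflect library-to-library spread only, part of which may be technical.

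Type I interferon acts through the receptor chains Ifnar1 and Ifnar2 and the kinases Jak1 and Tyk2, which activate STAT factors, Stat2 among them. Together with Irf9 these bind the interferon-stimulated response element (ISRE) in ISG promoters, whereas interferon gamma acts mainly through the gamma-activated site (GAS). HSCs and other stem cells are known to keep a set of ISGs on without infection, and interferon drives quiescent HSCs into division.

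The promoters are shown first because the ISRE is the element through which type I interferon is known to act on ISGs. Of the 48 genes, 38 had a RefSeq promoter window (250 bases before to 50 after the annotated start, GRCm38.p6). Dhx58, Zbp1, Oas2, Mx1, Mx2, Usp18, Parp9, Parp14, Ifi27 and Rtp4 had none. A pair of ISRE half-sites (GAAA, any 2 bases, GAAA, on either strand) occurred in 19 of the 38 genes (50%), against 3.99% of the 27025 mouse genes in the same table. The GAS letters TTCNNNGAA, which read the same on both strands, occurred in 10 genes (26.3%), against 9.55% of all genes; overlapping matches of either motif were kept. A match is a description of letters, not evidence that a factor binds there. In the stretches below, each 5′ to 3′ on the strand of the gene, capitals mark the ISRE half-site pairs, and overlapping pairs run on as 1 block.
Bst2, chr8:71537573-71537642, minus strand: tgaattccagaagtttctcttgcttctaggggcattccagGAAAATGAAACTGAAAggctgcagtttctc
Oas1a, chr5:120907526-120907595, minus strand: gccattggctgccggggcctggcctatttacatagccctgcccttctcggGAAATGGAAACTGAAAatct
Ifitm2, chr7:140955989-140956051, minus strand: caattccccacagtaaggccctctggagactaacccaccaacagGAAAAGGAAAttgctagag
Rsad2, chr12:26456533-26456602, minus strand: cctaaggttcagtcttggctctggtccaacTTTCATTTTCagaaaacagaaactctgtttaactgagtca
Ifit3, chr19:34583359-34583428, plus strand: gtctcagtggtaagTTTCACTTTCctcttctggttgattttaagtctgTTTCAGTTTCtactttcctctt
Isg15, chr4:156200859-156200928, minus strand: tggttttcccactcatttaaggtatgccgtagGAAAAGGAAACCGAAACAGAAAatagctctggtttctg

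These genes were picked from those with a pair because they are named below and because the stretches touch no annotated exon of the gene. They do not stand for all members that differed. Oasl2, Ifi44, Xaf1 and Lgals3bp, also named below, had a window without a pair. Isg15 held 3 overlapping pairs, Bst2, Oas1a and Ifit3 held 2 each, and Ifitm2 and Rsad2 held 1, on the opposite strand in Rsad2 and Ifit3. Ifitm3, the member with the highest level per kilobase of exon in each control group, carried its 2 pairs just after its start, GAAAAGGAAA from base 3 to 12 and GAAACCGAAA from base 20 to 29. Ifitm1, which lies between Ifitm2 and Ifitm3 on chromosome 7, had no such pair in its window.

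Counted per chromosome, 9 members lie on chromosome 11 (among them the GTPase genes Igtp, Irgm1 and Ifi47) and 6 on chromosome 7 (with the Ifitm genes). Chromosome 16 holds 6 (with Mx1 and Mx2, and with Parp9, Parp14 and Dtx3l). There are 5 Oas and Oas-like genes on chromosome 5, 4 members on chromosome 3 (with the Gbp genes) and 3 Ifit genes on chromosome 19. Members of the same chromosome need not be neighbours: on chromosome 11, Irgm1 starts at base 48861968 and Lgals3bp at base 118392751. In the GENCODE M21 annotation 19 of the 48 overlap another gene in an exon. The largest overlap was 40.9% of the exon length of Ifitm2, shared with a predicted gene, and Dtx3l and Parp9 overlap each other. The predicted gene lies on the same strand as Ifitm2, whereas Dtx3l and Parp9 lie on opposite strands. Strand was not recorded, and ambiguous reads were left out of the counts, so members with such overlaps may be undercounted. Reads of close copies such as Oas1a and Oas1g cannot be told apart with certainty.

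Counts assigned to genes came to 40.9 to 42.6 M counts per library (M, mega) in PUS10-OE and 34.2 to 47.3 M in Vector, 9.87 to 14.4 M in miR139-KD and 11.8 to 14.7 M in NTC, and 11.9 to 18.2 M in Pus10-KO and 14.5 to 16.5 M in Pus10-WT. Pus10 itself averaged 257 ± 23.7 CPM (the usual unit of read counts relative to library size, here with TMM scaling) in PUS10-OE libraries and 75.9 ± 20.2 CPM in Vector libraries (SD, n = 3 each). It averaged 32.9 ± 7.72 CPM in miR139-KD and 35.9 ± 6.09 CPM in NTC (SD, n = 6 each). In the libraries labelled Pus10-KO it averaged 35.2 ± 1.31 CPM, and in Pus10-WT 28.4 ± 7.68 CPM (SD, n = 3 each). Pus10 was thus not lower in the libraries labelled Pus10-KO, and counts per gene do not show which exons the reads come from, so every direction given for that experiment rests on the labels alone. All 10 HSC markers examined were detected in each experiment. Markers of neutrophils summed to 1379 to 17756 CPM in miR139-KD and 1114 to 19084 CPM in NTC libraries, so transcripts of other cells were present there. In such bulk libraries, fewer cells of a type and less RNA per cell cannot be told apart.

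In the control groups the membrane effectors of the Ifitm family dominated. These small proteins sit in endosomal and plasma membranes and block the fusion of enveloped viruses. Per kilobase of exon, Ifitm3 ranked first of the 48 in all 3 control groups, at 1326 ± 93.8 CPM per kb in Vector (SD, n = 3), 747 ± 234 in NTC (SD, n = 6) and 2098 ± 191 in Pus10-WT (SD, n = 3). Ifitm1 ranked second, at 933 ± 53.5, 307 ± 117 and 1438 ± 360 CPM per kb in the same 3 groups, and Ifitm2 came after them, at 436 ± 28.6, 291 ± 33.4 and 284 ± 23.4. In NTC the ranges of Ifitm1 (195 to 513) and Ifitm2 (253 to 333) overlapped, so their order there did not exceed their spread. The level of Ifitm2 may also be too low because of its exon overlap.

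Next came Lgals3bp, a secreted glycoprotein that binds galectins, Bst2, the tether that holds budding virions at the cell surface, the GTPase gene Ifi47 and Ifi27, except that the GTPase gene Igtp (104 CPM per kb) stood ahead of Ifi27 (76.5) in Pus10-WT. The group means of Lgals3bp, Bst2, Ifi47 and Ifi27 ran from 61.6 CPM per kb (Ifi47 in NTC) to 204 (Lgals3bp in Pus10-WT). Some textbook markers of an acute interferon response stood low. Isg15, the gene of the ubiquitin-like modifier, had 0.602 ± 0.176 CPM per kb in Vector (SD, n = 3), but 4.22 ± 3.05 in NTC (SD, n = 6) and 7.70 ± 7.02 in Pus10-WT (SD, n = 3). Mx1, a dynamin-like GTPase that blocks influenza virus, was at 0 in all 3 Vector libraries, and averaged 0.545 ± 0.457 CPM per kb in NTC (SD, n = 6) and 0.316 ± 0.219 in Pus10-WT (SD, n = 3). Ifit3, a partner of Ifit1 on foreign RNA, lay below 1 CPM per kb on average in each control group. Over all 24 libraries Ifitm3 made up 18.6% of the summed CPM of the members on average, and Ifitm1 14.3%. Levels were scaled within each experiment, and experiment and control group cannot be told apart.

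**Figure D1:**
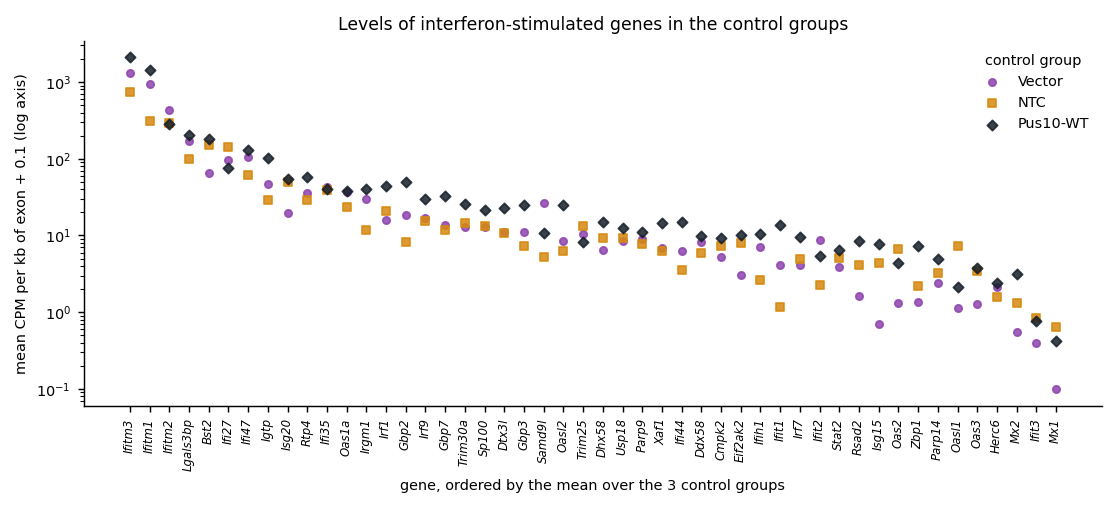
Mean level of each of the 48 ISGs in the Vector (n = 3), NTC (n = 6) and Pus10-WT (n = 3) libraries, as TMM-normalised CPM per kilobase of exon plus 0.1 on a log axis; each point is a group mean. The 3 Ifitm genes stand first in every group and Mx1 and Ifit3 last.

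The 10 interferon genes examined summed to at most 0.818 CPM in any library. All of that was Ifnk, and the others, Ifnb1, Ifna1, Ifna2, Ifna4, Ifna5, Ifne, Ifng, Ifnl2 and Ifnl3, were at 0 in every library. A count of 0 allows up to 3 counts in a library, from counting error alone. Interferon protein was not measured.

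PUS10-OE libraries held more ISG transcripts than Vector libraries. Summed over the 48 genes, the level was 5765, 5793 and 6807 CPM in PUS10-OE replicates 1 to 3, against 4954, 4718 and 5069 CPM in Vector replicates 1 to 3. The groups did not overlap. Of the 47 ISGs that passed the filter on low counts (Mx1 did not), 38 had a positive log2 fold change (80.9%), against 50.7% of all 14834 genes tested. Their median was 0.30, against 0.0059 over all genes tested.

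No member passed edgeR's quasi-likelihood test after Benjamini-Hochberg adjustment, but neither did any other of the 14834 genes (0 called, 0%), Pus10 included (adjusted p = 0.278). At an unadjusted p under 0.05, 14 ISGs were higher (29.8%, against 4.47% of all genes tested) and 0 lower (against 3.72%). In 15 ISGs every PUS10-OE library lay above every Vector library (31.9%, against 8.31% of all genes), and in 0 below (against 6.75%). DESeq2 called 7 ISGs, all higher (14.6% of 48, against 0.772% of 16058 genes): Ifitm3, Rtp4, Usp18, Bst2, Ifi44, Oasl2 and Oas2. Limma-voom called 0, edgeR with a filter at 10 CPM called Ifitm3 alone (0.108% of all genes), and leaving out each library in turn gave 0 calls in edgeR.

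By role, all 10 nucleic acid sensors had a positive fold change (median 0.49), as did all 4 membrane effectors (0.35) and all 7 genes grouped as others (0.35). Cytosolic effectors were positive in 6 of 8 tested (0.43). The GTPases were positive in 4 of 6 (0.11), the ISG15, ubiquitin and ADP-ribose enzymes in 5 of 8 (0.10), and the signalling factors in 2 of 4 (0.06).

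Among the membrane effectors, Ifitm3 had the lowest p of the 48. It stood at 1321, 1406 and 1574 CPM in PUS10-OE libraries, against 891, 840.0 and 966 CPM in Vector libraries. The lowest PUS10-OE library lay above the highest Vector library, with a log2 fold change of 0.67 (SE 0.0940, adjusted p = 0.278 in edgeR). Its neighbours on chromosome 7 did not separate in the same way. Ifitm1 stood at 954, 1087 and 1399 CPM in PUS10-OE, against 1031, 958 and 1074 CPM in Vector, with a log2 fold change of 0.17 (SE 0.138). Ifitm2 stood at 282, 299 and 406 CPM in PUS10-OE, against 305, 268 and 285 CPM in Vector, with a log2 fold change of 0.20 (SE 0.144). For both, the PUS10-OE libraries overlapped the Vector libraries, and replicate 3 was the highest PUS10-OE library.

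Bst2 stood at 74.8, 85.4 and 90.7 CPM in PUS10-OE libraries, against 60.8, 59.8 and 58.1 CPM in Vector libraries. The groups were separate, with a log2 fold change of 0.49 (SE 0.116, adjusted p = 0.358 in edgeR).

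Among the sensors, the Oas proteins make the 2-5A messenger that activates RNase L on double-stranded RNA. Oas2 had the largest fold change of the members with an unadjusted p under 0.05. It stood at 21.1, 11.5 and 25.0 CPM in PUS10-OE libraries, against 8.19, 5.70 and 2.39 CPM in Vector libraries. All 3 PUS10-OE values lay above the Vector values, with a log2 fold change of 1.82 (SE 0.475, adjusted p = 0.389 in edgeR). Oasl2, an Oas-like protein with ubiquitin-like domains, stood at 80.8, 71.0 and 102 CPM in PUS10-OE, against 57.0, 49.7 and 55.0 CPM in Vector. These groups were also separate, with a log2 fold change of 0.65 (SE 0.154, adjusted p = 0.358 in edgeR).

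Oas1a stood at 83.2, 103 and 105 CPM in PUS10-OE, against 79.3, 71.1 and 56.2 CPM in Vector (log2 fold change 0.49, SE 0.159). Eif2ak2, the kinase PKR, stood at 21.0, 22.1 and 20.5 CPM in PUS10-OE, against 12.7, 15.0 and 17.4 CPM in Vector (log2 fold change 0.49, SE 0.194). Both were separate between the groups. Ifih1 and Ddx58, the cytosolic RNA sensors MDA5 and RIG-I, were close to their Vector level, with log2 fold changes of 0.01 (SE 0.275) and 0.08 (SE 0.118).

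Usp18, the protease that removes ISG15 and damps signalling at Ifnar2, stood at 43.5, 40.4 and 60.6 CPM in PUS10-OE libraries, against 17.6, 26.5 and 27.0 CPM in Vector libraries. Every PUS10-OE library lay above every Vector library, with a log2 fold change of 1.02 (SE 0.232, adjusted p = 0.358 in edgeR). Its substrate gene Isg15 stayed low, at 0.680, 0.989 and 0.292 CPM in PUS10-OE, against 0.604, 0.416 and 0.346 CPM in Vector. The values overlapped (log2 fold change 0.52, SE 0.937). Dtx3l, a ubiquitin ligase that works with Parp9, stood at 62.5, 61.4 and 63.2 CPM in PUS10-OE, against 70.6, 55.4 and 64.7 CPM in Vector, with a log2 fold change of -0.03 (SE 0.127).

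Rtp4, a receptor transporter protein with antiviral activity, stood at 122, 112 and 128 CPM in PUS10-OE libraries, against 77.7, 65.6 and 84.9 CPM in Vector libraries. The groups were separate, with a log2 fold change of 0.67 (SE 0.127, adjusted p = 0.337 in edgeR). Ifi44 stood at 91.1, 60.4 and 56.8 CPM in PUS10-OE, against 38.6, 32.4 and 42.3 CPM in Vector. It too was separate, with replicate 1 the highest PUS10-OE library (log2 fold change 0.88, SE 0.208, adjusted p = 0.358 in edgeR). Xaf1, a pro-apoptotic partner of XIAP, was tightly grouped at 44.2, 44.1 and 43.7 CPM in PUS10-OE, against 30.8, 28.8 and 36.4 CPM in Vector (log2 fold change 0.46, SE 0.145). Lgals3bp stood at 545, 472 and 613 CPM in PUS10-OE, against 458, 474 and 506 CPM in Vector, which overlapped (log2 fold change 0.18, SE 0.108).

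**Figure D2:**
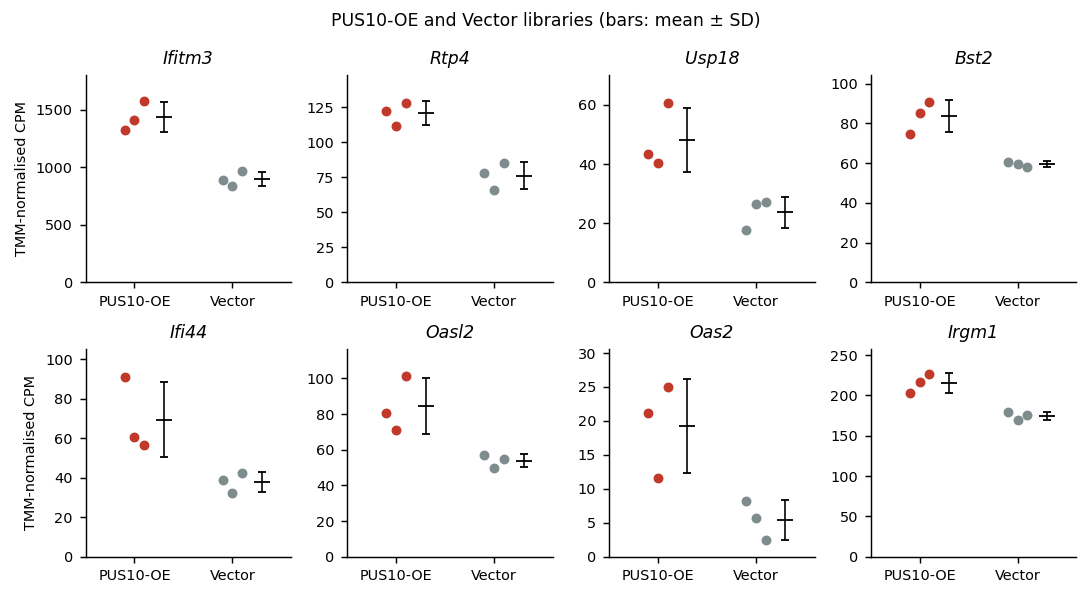
TMM-normalised CPM of the 8 ISGs with the lowest p in PUS10-OE over Vector; points are libraries (PUS10-OE left, Vector right, n = 3 each), bars mean and SD. In all 8 genes every PUS10-OE library lies above every Vector library, from a log2 fold change of 0.30 for Irgm1 to 1.82 for Oas2.

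The GTPases, which act on the vacuoles of intracellular pathogens, differed little. Irgm1, a regulator of autophagy, stood at 203, 216 and 227 CPM in PUS10-OE libraries, against 179, 169 and 175 CPM in Vector libraries. The groups were separate although the log2 fold change was only 0.30 (SE 0.0872, adjusted p = 0.425 in edgeR). Ifi47 stood at 286, 335 and 279.8 CPM in PUS10-OE, against 257, 278 and 244 CPM in Vector (log2 fold change 0.21, SE 0.103). The 3 Gbp genes had log2 fold changes of -0.04 (Gbp2), 0.02 (Gbp3) and -0.22 (Gbp7).

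Of the signalling factors, Irf7, which amplifies type I interferon production, stood at 31.3, 20.8 and 39.2 CPM in PUS10-OE libraries, against 7.72, 14.2 and 23.8 CPM in Vector libraries. These overlapped, with a log2 fold change of 1.00 (SE 0.410, adjusted p = 0.592 in edgeR). Irf9, the DNA-binding part of the ISRE complex, stood at 106, 108 and 107 CPM in PUS10-OE, against 92.7, 75.7 and 104 CPM in Vector, which did not overlap (log2 fold change 0.24, SE 0.130). Irf1, induced mainly by interferon gamma, and Stat2 had log2 fold changes of -0.32 (SE 0.251) and -0.11 (SE 0.260).

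The cytosolic effectors were mostly rare. Rsad2, the radical enzyme viperin, stood at 16.3, 8.36 and 16.2 CPM in PUS10-OE libraries, against 8.56, 3.99 and 7.16 CPM in Vector libraries, with replicate 2 lowest in each group (log2 fold change 1.05, SE 0.382). Ifit1, which binds RNA without a host cap, stood at 22.0, 17.6 and 18.1 CPM in PUS10-OE, against 16.6, 9.34 and 5.89 CPM in Vector, and did not overlap (log2 fold change 0.86, SE 0.364). Isg20, an RNA exonuclease, stood at 48.4, 37.1 and 56.1 CPM in PUS10-OE, against 34.7, 40.5 and 34.8 CPM in Vector, which overlapped.

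Other genes of the pathway were examined as lists. Of 11 receptor, JAK and STAT genes, 10 were tested and 0 called in PUS10-OE by edgeR (1 lower and 0 higher at an unadjusted p under 0.05), with a median log2 fold change of -0.20. Ifnar2 was the lowest in p, at 45.9, 49.98 and 52.9 CPM in PUS10-OE against 66.7, 64.3 and 58.2 CPM in Vector (log2 fold change -0.35, SE 0.123, adjusted p = 0.508 in edgeR). Of 37 further interferon-induced genes, 35 were tested, with 0 called by edgeR and 5 higher and 0 lower at an unadjusted p under 0.05 (median 0.09). Oas1g stood at 20.2 ± 2.81 CPM in PUS10-OE and 11.3 ± 0.967 CPM in Vector, and Ifi27l2a at 11.5 ± 2.06 and 5.14 ± 1.23 CPM in the same order (SD, n = 3 each). Of 12 tested sensors and adaptors upstream of interferon and 11 tested restraints of the response, edgeR called 0, with 0 at an unadjusted p under 0.05.

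Markers of other cells also differed between these groups, and their part in the ISG values was not tested. The sum of 5 multipotent progenitor markers was 669.8 to 694 CPM in PUS10-OE and 966 to 977 CPM in Vector, with a negative fold change in 4 of the 5. The sum of 8 megakaryocyte markers was 255 to 455 CPM in PUS10-OE and 155 to 181 CPM in Vector, with a positive fold change in all 6 markers tested. Plasmacytoid dendritic cells, which express Bst2 and Irf7 strongly, left 0.802 to 2.51 CPM in sum over 8 markers in PUS10-OE and 3.12 to 9.35 CPM in Vector, with Siglech, Klk1 and Ly6d at 0. Macrophage and monocyte markers summed to 3.54 to 5.78 CPM in PUS10-OE and 4.85 to 7.84 CPM in Vector, with C1qa, C1qb and C1qc at 0.

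In miR139-KD the ISGs did not shift as a group. Summed over the 48 genes, the level ran from 3032 to 3918 CPM in miR139-KD libraries (median 3576), against 2957 to 4304 CPM in NTC libraries (median 3179). The ranges overlapped almost entirely, and the highest NTC value belonged to replicate 6, above the 2957 to 3364 CPM of the other 5. All 48 were tested, and 21 had a positive log2 fold change (43.8%, median -0.02, against 0.02 over all genes tested). EdgeR called 361 of 13295 genes (2.72%) but 0 of the 48. At an unadjusted p under 0.05, 7 ISGs were higher (14.6%, against 8.04% of all genes) and 4 lower (8.33%, against 8%). In 2 ISGs, Ifih1 and Ifitm2, every miR139-KD library lay above every NTC library (4.17%, against 1.65%), and in 0 below (against 1.78%).

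Single members stood out. Ifih1, the sensor MDA5 for long double-stranded RNA, ran from 35.6 to 72.6 CPM in miR139-KD libraries (median 39.1), against 11.5 to 34.3 CPM in NTC libraries (median 19.3). The groups were separate, with a log2 fold change of 1.14 (SE 0.292) that narrowly missed the threshold (adjusted p = 0.0534 in edgeR). Leaving out 1 library at a time, the adjusted p of Ifih1 in edgeR ran from 0.0231, without NTC replicate 6, to 0.113, without miR139-KD replicate 1. It was also called by DESeq2 (adjusted p = 0.00514; 6.9% of all genes called), by limma-voom (3.89%), in the edgeR fit of all 6 groups (4.48%) and with a filter at 10 CPM (5.08%).

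The 3 Ifitm genes parted. Ifitm2 ran from 221 to 274 CPM in miR139-KD (median 240.3), against 166 to 218 CPM in NTC (median 187), with no overlap (log2 fold change 0.34, SE 0.0943, adjusted p = 0.0683 in edgeR). Ifitm3 ran from 585 to 778 CPM in miR139-KD (median 742), against 361 to 802 CPM in NTC (median 464), with NTC replicate 6 alone above every miR139-KD library (log2 fold change 0.48, SE 0.165, adjusted p = 0.156 in edgeR). Without NTC replicate 6 edgeR called 3 ISGs, all higher: Ifih1 (adjusted p = 0.0231), Ifitm2 (0.0483) and Ifitm3 (0.0107). The share of all genes called in that run is not given here, so the count cannot be set against it. Ifitm1 pointed the other way, at 164 to 295 CPM in miR139-KD (median 238), against 214 to 561 CPM in NTC (median 319.9), and overlapped (log2 fold change -0.54, SE 0.222, adjusted p = 0.238 in edgeR).

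**Figure D3:**
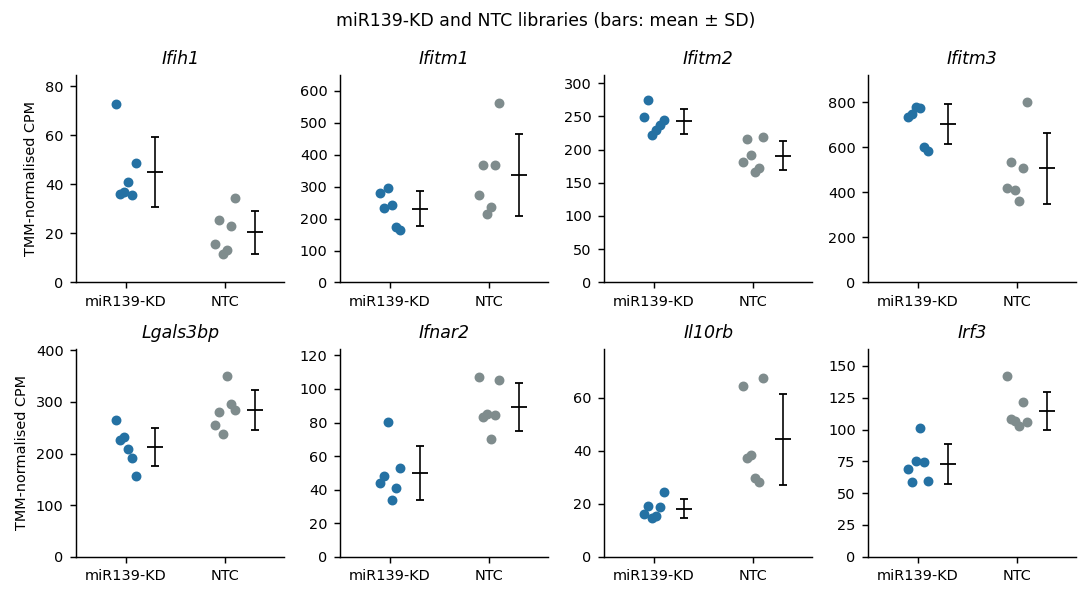
TMM-normalised CPM of Ifih1 and the 3 Ifitm genes (top row) and of Lgals3bp and 3 called genes of the interferon pathway (bottom row); points are libraries (miR139-KD left, NTC right, n = 6 each), bars mean and SD. Ifih1 and Ifitm2 separate with miR139-KD above NTC, Il10rb and Irf3 separate with miR139-KD below, and in Ifitm3 1 NTC library stands at 802 CPM.

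Lgals3bp ran from 156 to 265 CPM in miR139-KD (median 217), against 238 to 350.0 CPM in NTC (median 283). The ranges met, with a log2 fold change of -0.42 (SE 0.126, adjusted p = 0.103 in edgeR), and DESeq2 called it lower. Rsad2 ran from 14.3 to 57.0 CPM in miR139-KD (median 34.5), against 8.12 to 29.3 CPM in NTC (median 15.6), a log2 fold change of 1.10 (SE 0.392, adjusted p = 0.168 in edgeR).

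Oas2 and Dhx58, which are sensors too, pointed the opposite way from Ifih1. Oas2 ran from 4.80 to 29.7 CPM in miR139-KD (median 7.77), against 13.6 to 57.7 CPM in NTC (median 26.5), a log2 fold change of -1.25 (SE 0.490, adjusted p = 0.213 in edgeR). Dhx58, the RIG-I-like protein LGP2 that tunes MDA5, ran from 2.00 to 25.2 CPM in miR139-KD (median 12.0), against 15.6 to 45.0 CPM in NTC (median 30.7), a log2 fold change of -1.19 (SE 0.478, adjusted p = 0.226 in edgeR). In both the groups overlapped.

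Members of the remaining groups overlapped as well. Irf9 ran from 32.3 to 133 CPM in miR139-KD (median 63.6), against 64.3 to 99.8 CPM in NTC (median 85.1). Isg20 ran from 74.1 to 172 CPM in miR139-KD (median 118), against 36.5 to 141 CPM in NTC (median 94.9). Ifi47 ran from 170.4 to 292 CPM in miR139-KD (median 189), against 90.2 to 219.9 CPM in NTC (median 147). The adjusted p in edgeR was 0.735 for Irf9, 0.512 for Isg20 and 0.283 for Ifi47. Oasl2 ran from 14.2 to 71.3 CPM in miR139-KD (median 39.1), against 19.7 to 57.5 CPM in NTC (median 39.5). Dtx3l ran from 54.4 to 87.0 CPM in miR139-KD (median 83.3), against 47.0 to 90.6 CPM in NTC (median 58.0). The ranges of both overlapped, with adjusted p of 0.917 and 0.358 in edgeR. Isg15 ran from 2.60 to 5.45 CPM in miR139-KD (median 3.66), against 0.0698 to 6.05 CPM in NTC (median 2.71).

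By role, the cytosolic effectors were positive in 6 of 9 (median 0.50) and the GTPases in 4 of 6 (0.41), against 5 of 10 sensors (-0.07), 2 of 4 membrane effectors (0.10), 3 of 8 ISG15, ubiquitin and ADP-ribose enzymes (-0.10), 1 of 4 signalling factors (-0.02) and 0 of the 7 others (-0.30).

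Among the genes upstream of the ISGs, edgeR called Ifnar2, Il10rb and Irf3 lower in miR139-KD. Ifnar2, the signalling chain of the type I receptor, fell, running from 34.1 to 80.1 CPM in miR139-KD (median 45.9), against 70.3 to 107 CPM in NTC (median 84.8). One miR139-KD library, replicate 3, lay inside the NTC range (log2 fold change -0.84, SE 0.195, adjusted p = 0.0346 in edgeR).

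Il10rb, a chain shared by the receptors of interferon lambda and interleukin 10, also fell, at 14.6 to 24.3 CPM in miR139-KD (median 17.3) against 28.2 to 67.3 CPM in NTC (median 37.9). It did not overlap (log2 fold change -1.29, SE 0.260, adjusted p = 0.0162 in edgeR). Irf3, which turns on interferon genes after viral sensing, fell as well, at 59.1 to 101.6 CPM in miR139-KD (median 72.0) against 103 to 142 CPM in NTC (median 108), with no overlap (log2 fold change -0.65, SE 0.147, adjusted p = 0.0310 in edgeR). Of the other lists, 0 of the 11 tested restraints and 0 of the 34 tested further interferon-induced genes were called by edgeR. At an unadjusted p under 0.05 the restraints had 1 higher and 2 lower, and the further interferon-induced genes 2 higher and 0 lower.

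Cell markers differed strongly in this experiment, and their part in these values was not tested. EdgeR called 4 of the 5 multipotent progenitor markers lower, and their sum was 235 to 308 CPM in miR139-KD and 616 to 1103 CPM in NTC. It called 4 of 8 megakaryocyte markers higher, with sums of 1137 to 2813 CPM in miR139-KD and 66.7 to 320 CPM in NTC. Of 8 B cell markers 3 were called lower, with sums of 29.7 to 586 CPM in miR139-KD and 1049 to 2312 CPM in NTC. All 10 hematopoietic stem cell markers had positive log2 fold changes, Slamf1 and Gata2 were called higher, and the sums were 886 to 1084 CPM in miR139-KD and 543 to 747 CPM in NTC. Of the T and NK cell markers Lck was called lower. Plasmacytoid dendritic cell markers summed to 5.16 to 56.0 CPM in miR139-KD and 51.4 to 147 CPM in NTC, with Klk1 at 0. NTC replicate 6 had the highest sum of its group for hematopoietic stem cell, progenitor, B cell, T and NK cell, neutrophil and plasmacytoid dendritic cell markers. It had the lowest sum for erythroid markers, and was the highest NTC library in 20 of the 48 ISGs.

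In the libraries labelled Pus10-KO, no ISG was called against Pus10-WT by edgeR, DESeq2 or limma-voom. The summed level was 6799.8, 6675 and 7067 CPM in Pus10-KO replicates 1 to 3, against 7250.0, 8469 and 6565 CPM in Pus10-WT replicates 1 to 3, which overlapped. All 48 were tested, and 17 had a positive log2 fold change (35.4%, median -0.07, against 49.7% and a median of -0.0034 over all genes tested). Under scaling by library size alone the split was 24 positive and 24 negative. EdgeR called 9 of 14657 genes (0.0614%) and 0 of the 48, and DESeq2 (1.46% of all genes) and limma-voom (0.0205%) also called 0. At an unadjusted p under 0.05, 0 ISGs were higher (against 3.53% of all genes) and 5 lower (10.4%, against 3.33%). The same 5 genes, Zbp1, Ifi44, Lgals3bp, Ifitm3 and Xaf1, were the ones in which every Pus10-KO library lay below every Pus10-WT library (10.4%, against 6.79%), and 0 lay above (against 6.86%).

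Zbp1, a sensor of Z-form nucleic acid that triggers necroptosis, stood at 10.5, 11.1 and 14.2 CPM in Pus10-KO libraries, against 17.8, 38.5 and 19.2 CPM in Pus10-WT libraries. Pus10-WT replicate 2 was far above the others (log2 fold change -1.07, SE 0.401, adjusted p = 0.650 in edgeR). Ifi44 stood at 43.4, 65.8 and 63.7 CPM in Pus10-KO, against 70.6, 113 and 89.5 CPM in Pus10-WT, without overlap (log2 fold change -0.66, SE 0.245, adjusted p = 0.650 in edgeR).

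Lgals3bp stood at 403, 513 and 425 CPM in Pus10-KO, against 534, 685 and 526 CPM in Pus10-WT, where the lowest Pus10-WT library was only just above the highest Pus10-KO library (log2 fold change -0.38, SE 0.143). Ifitm3 stood at 1194, 1244 and 1229 CPM in Pus10-KO, against 1421, 1552 and 1294 CPM in Pus10-WT, a small but separate difference (log2 fold change -0.22, SE 0.0857, adjusted p = 0.667 in edgeR). Xaf1 stood at 51.0, 42.0 and 54.6 CPM in Pus10-KO, against 71.4, 62.6 and 68.0 CPM in Pus10-WT, again without overlap (log2 fold change -0.45, SE 0.187).

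Some effectors pointed upward without separating. Rsad2 stood at 32.6, 79.7 and 80.2 CPM in Pus10-KO, against 38.0, 43.1 and 28.7 CPM in Pus10-WT, with replicate 1 the low Pus10-KO library (log2 fold change 0.81, SE 0.366). Gbp2, a guanylate-binding protein, stood at 137, 159 and 169 CPM in Pus10-KO, against 124, 118 and 137 CPM in Pus10-WT, where 1 library of each group nearly coincided (log2 fold change 0.29, SE 0.138). Ifit3 stood at 2.06, 2.50 and 30.8 CPM in Pus10-KO, against 0, 1.26 and 2.26 CPM in Pus10-WT. Its fitted log2 fold change of 3.32 (SE 1.63) rested on Pus10-KO replicate 3 and was 0.95 without that library. The same library was the highest of all 6 for Ifit1, at 89.7 CPM against 10.4 and 23.9 CPM in the other Pus10-KO libraries, and for Mx1, at 15.1 CPM.

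**Figure D4:**
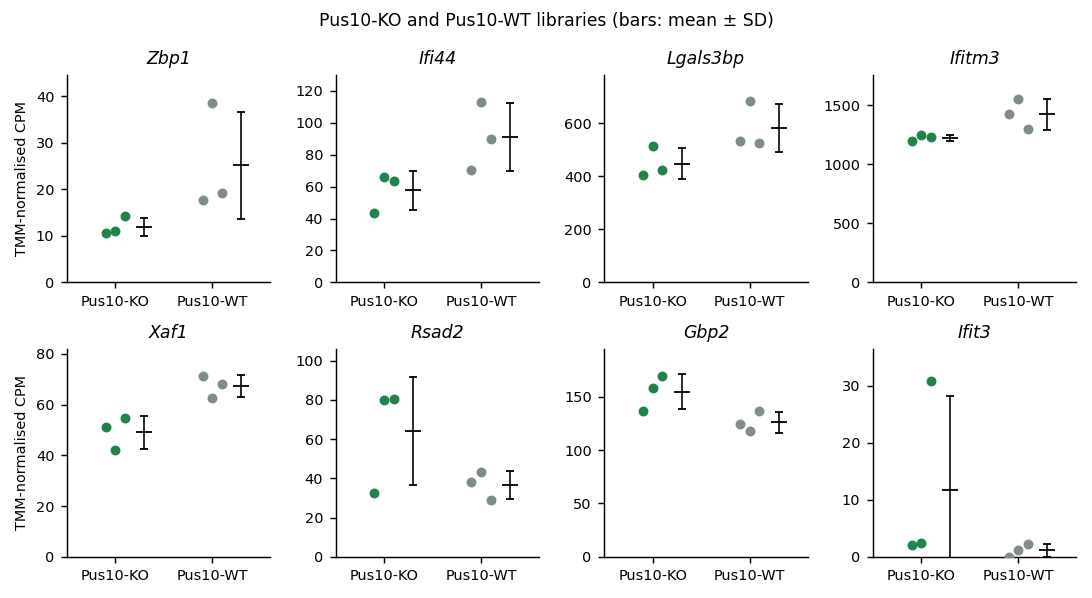
TMM-normalised CPM of the 8 ISGs with the lowest p in Pus10-KO over Pus10-WT; points are libraries (Pus10-KO left, Pus10-WT right, n = 3 each), bars mean and SD. The first 5 genes have every Pus10-KO library below every Pus10-WT library, and Ifit3 has 1 Pus10-KO library at 30.8 CPM.

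These members of other role groups overlapped between Pus10-KO and Pus10-WT. Oasl2 stood at 125, 124 and 154 CPM in Pus10-KO, against 152, 197 and 132 CPM in Pus10-WT. Isg20 stood at 94.9, 70.5 and 128 CPM in Pus10-KO, against 118, 109.6 and 75.3 CPM in Pus10-WT. Dtx3l stood at 187, 147 and 139 CPM in Pus10-KO, against 121, 131 and 141 CPM in Pus10-WT. All 3 overlapped, with log2 fold changes of -0.26 for Oasl2, -0.04 for Isg20 and 0.27 for Dtx3l. Irf9 stood at 182, 183 and 165 CPM in Pus10-KO, against 159.6, 195 and 125 CPM in Pus10-WT. Ifi47 stood at 348, 333 and 265 CPM in Pus10-KO, against 334, 383 and 239.6 CPM in Pus10-WT. Neither separated.

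By role, 9 of the 10 sensors had a negative fold change (median -0.35), as did all 4 membrane effectors (-0.17) and 6 of the 7 others (-0.33). The cytosolic effectors were positive in 7 of 9 (0.08), the ISG15, ubiquitin and ADP-ribose enzymes in 5 of 8 (0.06), the GTPases in 2 of 6 (-0.03) and the signalling factors in 1 of 4 (-0.06). In the surrounding pathway edgeR called 0 of the 10 tested receptor, JAK and STAT genes, with 1 higher and 1 lower at an unadjusted p under 0.05. Ifngr1, the ligand-binding chain of the interferon gamma receptor, stood at 194 ± 26.1 CPM in Pus10-KO and 277 ± 54.9 CPM in Pus10-WT (SD, n = 3 each). EdgeR also called 0 of 11 tested sensors and adaptors, 0 of 11 tested restraints and 0 of 35 tested further interferon-induced genes. At an unadjusted p under 0.05 these had 0 higher and 1 lower, 1 higher and 1 lower, and 1 higher and 0 lower.

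Plasmacytoid dendritic cell markers summed to 0 to 3.29 CPM in Pus10-KO and 15.3 to 57.1 CPM in Pus10-WT, with Siglech, Klk1 and Clec10a at 0. Plasma cell markers summed to 232 to 353 CPM in Pus10-KO and 1545 to 4551 CPM in Pus10-WT, with Jchain called lower, and Cd79a of the B cell list was called lower too. Erythroid markers summed to 459 to 5643 CPM in Pus10-KO and 286 to 1715 CPM in Pus10-WT, with 6 of 8 higher at an unadjusted p under 0.05. Neutrophil markers summed to 608 to 3391 CPM in Pus10-KO and 539 to 814 CPM in Pus10-WT, with a positive fold change in all 5 tested. Pus10-KO replicate 3, the library highest for Ifit3, Ifit1 and Mx1, had the highest sum of both lists in this experiment. The part of these cells in the ISG values was not tested.

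The 3 effects were then set against each other in a fit of all 24 libraries, as differences of log2 fold changes. For PUS10-OE minus Pus10-KO, edgeR called 0 of 48 ISGs (4 of 17664 genes, 0.0226%), and 9 had an unadjusted p under 0.05 (18.8%, against 5.75%). Ifitm3 had the lowest p, with fold changes of opposite sign in the 2 experiments and a difference of 0.89 (SE 0.266, adjusted p = 0.661 in edgeR). Bst2 followed at 0.75 (SE 0.257) and Oas2 at 2.40 (SE 0.888). These differences use the same libraries as the comparisons above, so they are no separate support for a direction.

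For PUS10-OE minus miR139-KD, edgeR again called 0 of 48 (9 genes, 0.051%), with 13 at an unadjusted p under 0.05 (27.1%, against 8.47%). Oas2 had the lowest p, with a difference of 3.09 (SE 0.781, adjusted p = 0.172 in edgeR), followed by Lgals3bp at 0.63 (SE 0.197). Ifih1 ran the other way, at -1.11 (SE 0.484). For miR139-KD minus Pus10-KO, edgeR called 0 of 48 (52 genes, 0.294%) and 4 had an unadjusted p under 0.05 (8.33%, against 10.1%), a share below that of all genes: Ifih1, Ifitm2, Ifitm3 and Zbp1. Limma-voom called 1 ISG in each of the 3 differences, Ifitm3, Oas2 and Ifitm3 in the order given. Its share of calls over all genes is not given here, so these calls cannot be set against it.

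**Figure D5:**
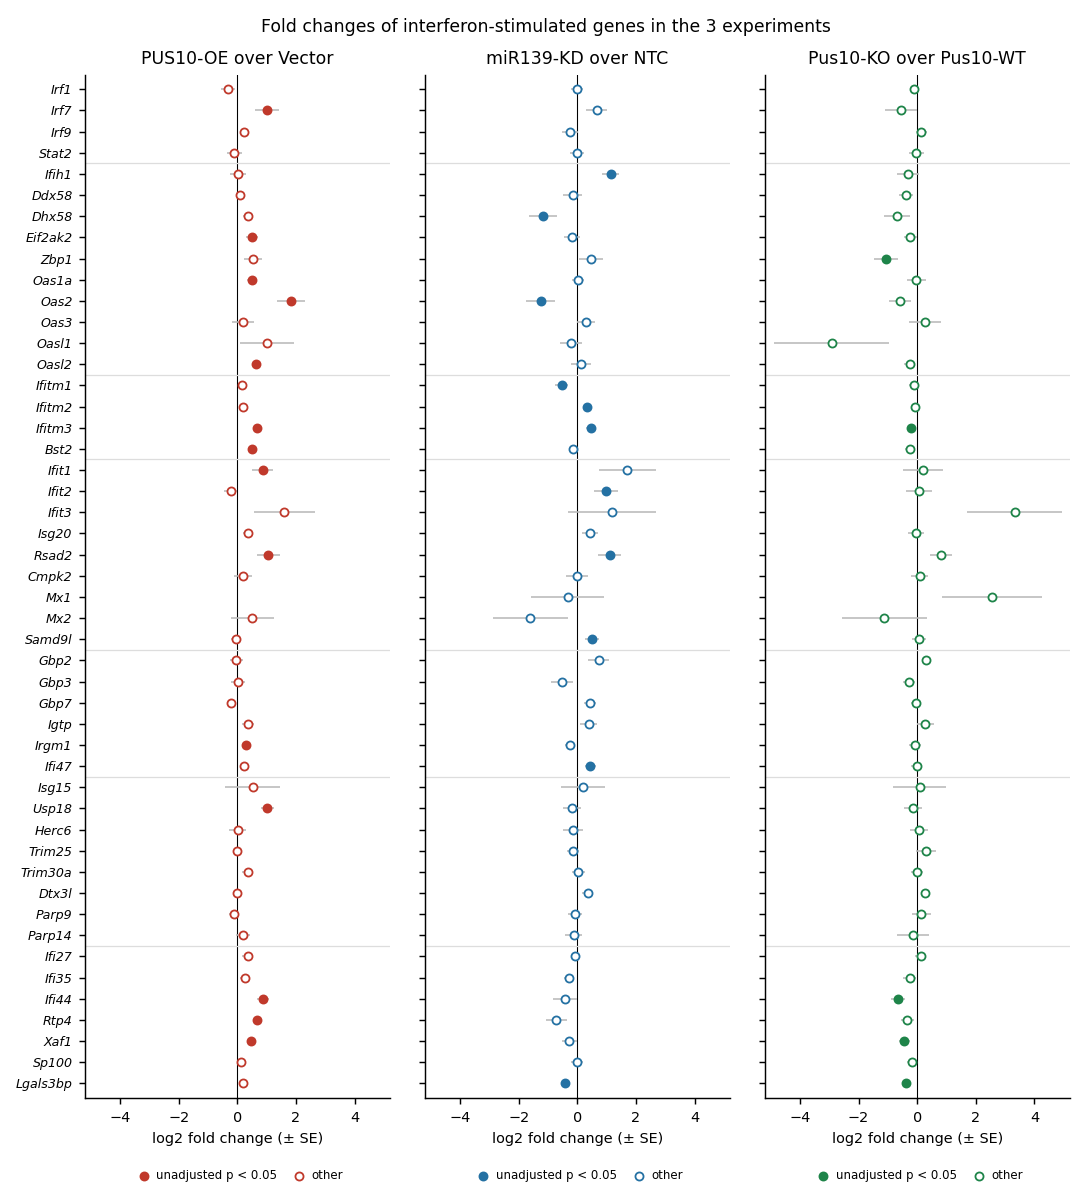
Log2 fold change of each ISG (± SE, edgeR) in PUS10-OE over Vector (left), miR139-KD over NTC (middle) and Pus10-KO over Pus10-WT (right), with grey lines between role groups; filled points have an unadjusted p under 0.05. On the left 38 of 47 points lie above 0 and all 14 filled ones are positive, in the middle 7 filled points are positive and 4 negative, and on the right all 5 filled points are negative.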

How the data were processed

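Sorted mouse HSCs were profiled by Smart-seq2, and the deposited files hold raw read counts per Ensembl gene for each of the 24 libraries. The submitters' processing notes name HISAT2 2.1.0, HTSeq 0.11.2 and DESeq2, and the build mm10; these sources do not name the annotation release. Reads with no feature made up 3.70 to 12.0% and ambiguous reads 6.53 to 20.1% of the entries per library, and both stayed out of the library totals. The entries for reads with no unique alignment and for unaligned reads were 0.

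IDs were matched without version to GENCODE M21 symbols (55394 of 55487). Each treated group was compared with its own control by edgeR 4.0.16 (TMM scaling, filterByExpr, robust quasi-likelihood F test, Benjamini-Hochberg adjustment over all genes tested, threshold 0.05), in R 4.3.3. CPM values are TMM-normalised within an experiment. Differences between effects came from 1 edgeR fit of all 24 libraries. The alternatives were DESeq2 1.42.0, limma-voom (limma 3.58.1), other scalings, no filter, a filter at a mean of 10 CPM, a replicate block, all 6 groups in 1 fit, and leaving out libraries. Adjusted p-values that DESeq2 gave as NA stayed NA. The scripts were checked on simulated data. Tables and figures were made in Python 3.11.15 with matplotlib 3.10.9.

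Replicate numbers did not pair the libraries: same-numbered libraries correlated at -0.0196 to 0.0197 over 12 pairs. No library was a repeat of another (42 pairs within groups, lowest chi-square per degree of freedom 30.1). Depth was 9.87 to 47.3 M counts, and floors cover counting error only. Per-library values are given for the 8 members with the lowest p in each comparison and the member of each role group with the highest mean CPM over all 24 libraries; others were added to describe their role group. The members and the lists of interferon genes, receptors with JAK and STAT genes, sensors and adaptors, restraints, further interferon-induced genes and cell markers were chosen with earlier results of these data known. A result for 1 gene of the pathway lists is not reported here.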

Additional observations from a re-analysis of the deposited data

Results flagged for a closer look

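Within the groups of 6 libraries, each member was examined for a library that stands apart from the others (Dixon's criterion at 95%, which chance meets in about 5% of groups). Of 96 pairs of member and group, 10 met it, 4 of them in NTC replicate 6. That library had 70.4 CPM of Ddx58 (next 40.9), 46.4 CPM of Samd9l (next 26.4), 132 CPM of Rtp4 (next 60.0) and 173 CPM of Sp100 (next 101).

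In miR139-KD, replicate 1 had 72.6 CPM of Ifih1 (next 48.6). Replicate 3 had 38.3 CPM of Oasl1 (next 14.0) and 73.6 CPM of Rtp4 (next 36.2). Replicate 4 had 9.89 CPM of Ifit3 (next 2.85) and 6.07 CPM of Mx2 (next 1.05). Replicate 2 was low for Dtx3l, at 54.4 CPM (next 79.5).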

How the results depend on the processing

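The number of ISGs called in PUS10-OE over Vector was 0 in edgeR, 1 with a filter at 10 CPM and 7 by DESeq2. The filter gave 2.44% of members (0.108% of all genes), and DESeq2 called 14.6% higher (0.772%). In miR139-KD over NTC the number was 0 in edgeR, 1 with that filter, 2 by limma-voom, 3 by DESeq2 and 4 in the fit of all 6 groups. There the filter gave 2.38% of members (5.08% of all genes) and DESeq2 6.25% (6.9%), both below the share of all genes. Limma-voom gave 4.17% (3.89%) and the fit of all 6 groups 8.33% (4.48%). Leaving out 1 library gave 0 to 3, with 3 without NTC replicate 6, and leaving out NTC replicate 6 and miR139-KD replicate 1 together, chosen after seeing the data, gave 2. In Pus10-KO over Pus10-WT every alternative run gave 0. Limma-voom gave 1 in each of the 3 differences between effects. Shares over all genes are not given here for those differences or for the runs with libraries left out. The causes were not tested. Leaving out 1 library, the median log2 fold change of the members ran from 0.23 to 0.35 in PUS10-OE, from -0.09 to 0.04 in miR139-KD and from -0.18 to -0.03 in Pus10-KO.

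Single values near 0 changed sign. Dtx3l in PUS10-OE ran from -0.12 to 0.055 with 1 library left out. Oasl2 in miR139-KD was -0.015 by limma-voom and ran from -0.083 to 0.30 with 1 library left out. In Pus10-KO, Isg20 was 0.020 and Ifi47 0.052 under library-size scaling, and Ifi47 was 0.0037 with all 6 groups in 1 fit. With 1 library left out, Isg20 ran from -0.29 to 0.14, Ifi47 from -0.19 to 0.14 and Irf9 from -0.0092 to 0.31.

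With the replicate number as a block, 0 ISGs were called in each comparison, the medians were 0.30, -0.02 and -0.08, and Ifi47 in Pus10-KO was 0.0027. Mx1, Mx2, Ifit1, Ifit3, Oasl1 and Isg15 had 3 counts or fewer in at least 1 library each, which limits the precision of their values.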

Other observations

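Trim21, a cytosolic antibody receptor and ubiquitin ligase from the list of further interferon-induced genes, was near 0 in the controls. It stood at 1.36, 0.643 and 1.83 CPM in PUS10-OE, against 0, 0.0208 and 0 CPM in Vector. In miR139-KD it ran from 1.58 to 7.0 CPM (median 4.03), against 0 to 3.45 CPM in NTC (median 0.251). In Pus10-KO it stood at 16.1, 22.0 and 36.2 CPM, against 0.622, 3.09 and 2.33 CPM in Pus10-WT. The Pus10-KO and PUS10-OE libraries lay above all of their controls, and the miR139-KD range overlapped that of NTC. EdgeR called it in none of the 3 comparisons (adjusted p = 0.337, 0.307 and 0.350 in the order given). It was named here after its values were seen.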
